A study of Mus musculus with 27 samples.

Results

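The comparison described here is the answer of wild-type mouse microglia to CpG, a DNA ligand of Toll-like receptor 9, across all genes. It rests on 6 of the 27 libraries of the series: replicates 1 to 3 of the CpG-treated wild-type group (library numbers 3018, 3019 and 3020) and replicates 1 to 3 of the unstimulated wild-type group with neighbouring numbers (3012, 3013 and 3014). These libraries were picked by their labels, not by any measured value. Both groups were neonatal C57BL/6J microglia. Cortical cells, freed of meninges, had grown as mixed glia for about 14 days before the microglia were shaken loose, plated again and rested for 24 h. The treated cells then received CpG at 1 nmol/ml for 16 h. The labels do not name the CpG oligonucleotide. They also leave unsaid whether replicates came from different mice or dishes. The p-values and standard errors reflect the scatter of libraries within groups, pooled over all 27 libraries, and this scatter could be technical. For comparison, 3 libraries each came from wild-type cells given LPS (100 ng/ml) with IFNγ (20 ng/ml) or PolyI:C. No cells received LPS alone, so LPS below stands for LPS with IFNγ, whose parts cannot be told apart. A further 3 each came from unstimulated and CpG-treated cells labelled CB2-/- (strain B6.Cg-Cnr2tm1Zim), which carry a targeted allele of the cannabinoid receptor gene Cnr2.

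Toll-like receptor 9 sits in endosomes, where the chaperone Unc93b1 delivers it and cathepsins trim it, and it binds DNA rich in unmethylated CpG. The adaptor Myd88 then recruits Irak kinases and Traf6, which lead to the transcription factors NF-kB and AP-1, to Irf5 and, in some cells, to Irf7 and interferon. Microglia are macrophages of the brain. Activated through such receptors, they make cytokines and chemokines and lower the genes that mark their resting state.

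Levels below are normalised counts, given in the order of replicates 1, 2 and 3, and are not scaled by gene length. A change is a difference of log2(value + 1) from limma, CpG minus unstimulated, with its standard error, and a gene is called higher or lower at an adjusted p under 0.05. The 6 libraries held about 2.5 to 17.8 M reads, if the step seen most often in the values is 1 read, and 13628 to 20643 of 23995 genes were above 0. CpG replicate 1 had the fewest such genes at about 4.76 M reads, while CpG replicate 2, at about 2.5 M, had 15347. All 14 microglia and macrophage markers, among them Csf1r, Aif1, Itgam, Cx3cr1 and C1qa, were detected in each of the 6 libraries. Their summed level was 158900, 185000 and 175000 in the unstimulated libraries and 123800, 115700 and 111400 with CpG. In bulk RNA, fewer cells of a type and less RNA per cell cannot be told apart.

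The 3 CpG libraries were uneven. Over 7791 genes with a mean of at least 100, the log2 values of replicates 2 and 3 differed with an SD of 0.491, whereas replicate 1 differed from them with SDs of 0.964 and 0.937. In the libraries labelled CB2-/- and given CpG, the same SD was 0.298 to 0.366, and in the unstimulated wild-type group it was 0.486 to 0.777. Of 1422 genes whose CpG libraries spanned at least 2-fold, replicate 1 was the one apart in 980 (68.92%), below the others in 560 and above them in 420. limma's estimated quality weight of this library, 0.141, was the lowest of the 27.

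Markers of the other cells of a mixed glial culture moved with this unevenness. The summed level of 11 astrocyte markers was 82.3, 1216 and 1730 in the CpG libraries and 272, 1527 and 391.9 in the unstimulated ones. Fibroblast and meningeal markers, 12 in all, summed to 63.0, 1820 and 2998 with CpG and to 65.8, 4572 and 599 without. In CpG replicate 1, 4 of the astrocyte and 7 of the fibroblast markers stood at 0, Aqp4, Col3a1 and Dcn among them. None of these markers was called by limma in either direction with all libraries in the fit, and 0 passed an unadjusted p of 0.05. Without CpG replicate 1, 1 astrocyte and 1 fibroblast marker were called higher. Among the genes with the largest spread between the CpG libraries, the matrix glycoprotein gene Tnc read 0, 935 and 976 with CpG, the collagen gene Col5a2 0, 406 and 477, and the matricellular gene Ctgf 0, 371 and 406. Of the 20 most uneven genes none was called, which follows in part from their choice by spread, since spread raises the standard error. In 19 of them replicate 1 was at 0, the exception being the ribosomal pseudogene Rpl23a-ps3 (385, 0 and 0). Most counts below are therefore also given without CpG replicate 1. Counts for gene lists moved more under some other settings, as given in the last section.

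**Figure D1:**
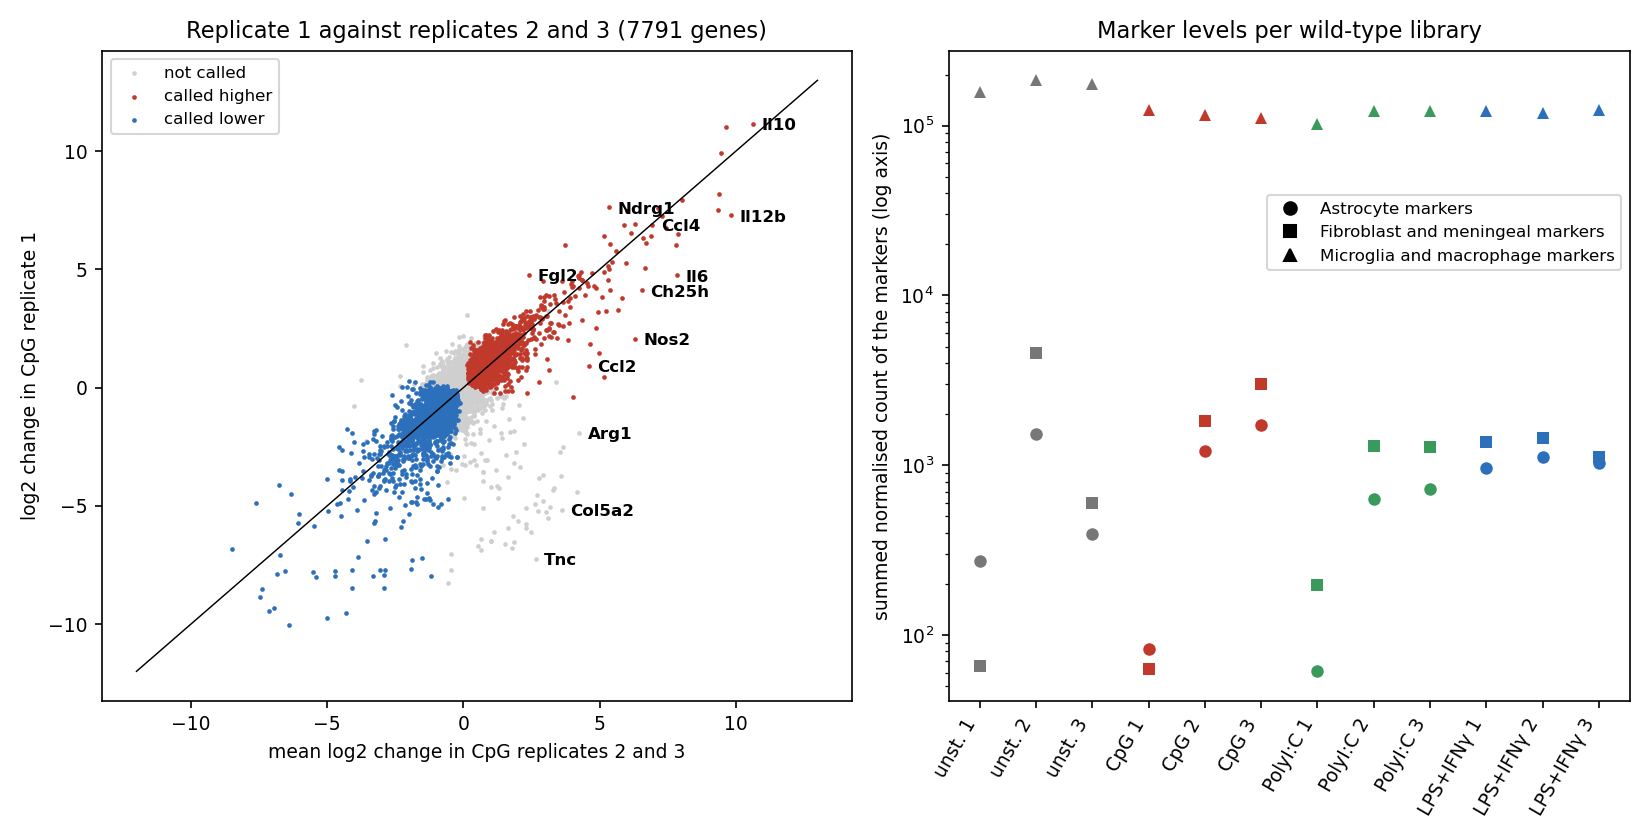
Left, log2 change from the unstimulated mean in CpG replicate 1 (vertical) against the mean change in CpG replicates 2 and 3 (horizontal), 1 point per gene for 7791 genes, coloured by call; Nos2, Il6 and Ccl2 lie below the line of equality and Fgl2 and Ndrg1 above it. Right, summed normalised counts (log axis) of astrocyte, fibroblast and microglia markers in each wild-type library; CpG replicate 1 has 82.3 for astrocytes and 63.0 for fibroblasts, against 1216 to 2998 in CpG replicates 2 and 3.

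With CpG, 5285 of 14668 genes tested differed from the unstimulated libraries (36.0%). Of these, 2415 rose (16.5%) and 2870 fell (19.6%). The groups did not overlap for 88.4% of the genes that rose and 87.0% of those that fell, against 38.0% of all genes tested. Decreases were deeper: the median absolute log2 change was 1.45 among genes that fell and 0.96 among those that rose, and 1026 genes fell at least 4-fold while 388 rose that far. At the far end the order turned, with 25 genes at least 64-fold higher and 18 at least 64-fold lower. The depth of the decreases varied by library. The median change of the fallen genes was -1.59, -1.34 and -1.11 in CpG replicates 1, 2 and 3, and that of the risen genes 1.02, 0.95 and 0.91. A mean of at least 100 was reached by 1807 of the fallen and 2052 of the risen genes. The part of low levels in the deeper decreases was not tested. Without CpG replicate 1, 2255 genes were called higher and 2519 lower (15.4% and 17.2%), and 82.0% of the risen and 78.2% of the fallen genes kept their call. The median change of all genes was -0.09, and quantile scaling, which forces all libraries to 1 distribution, moved it by 0.14 to 0.05 and gave 2564 higher and 2529 lower. With the 6 compared libraries alone in the fit, 1318 genes were called higher and 1355 lower. That fit leaves few degrees of freedom and takes its scatter from these 6 libraries only. For Nos2, Cxcl10 and Il1a, which lost their call there, the changes stayed the same while the standard errors were larger. They were 1.50, 0.79 and 1.42, against 0.82, 0.41 and 0.85 with all libraries in the fit. The part of each in the smaller counts was not tested.

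**Figure D2:**
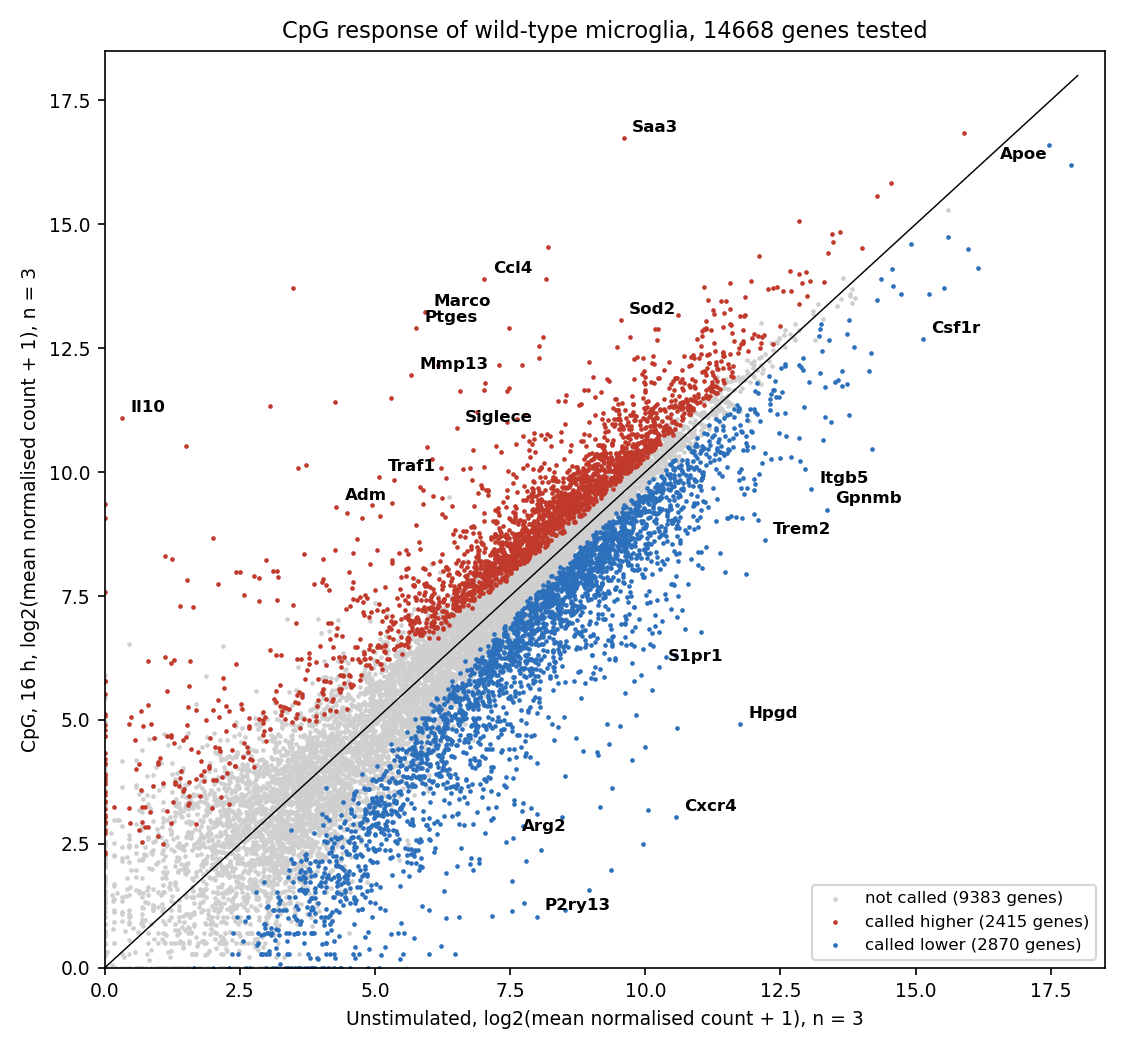
Mean level of each of 14668 genes in the 3 CpG libraries (vertical) against the 3 unstimulated libraries (horizontal), both as log2(mean normalised count + 1), with the line of equality. Red points are the 2415 genes called higher and blue points the 2870 called lower; Il10, Marco and Saa3 stand far above the line and Cxcr4, Hpgd and P2ry13 far below it.

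Beside the cytokine Il10 and the dicarboxylate transporter gene Slc13a3, the 30 highest genes, with log2 changes from 5.62 to 10.80, held scavenging, acute-phase, prostaglandin and matrix genes. Marco, a scavenger receptor for bacteria (chromosome 1, 120474538 to 120505024), lay at 67.7, 52.9 and 58.8 in the unstimulated libraries and 11726, 8941 and 8192 with CpG (log2 change 7.30 ± 0.19, adjusted p = 1.43e-18). Saa3, an acute-phase serum amyloid gene (chromosome 7, 46711998 to 46715700), lay at 358, 1129 and 837 in the unstimulated libraries and 108250, 114265 and 105280 with CpG (log2 change 7.29 ± 0.24, adjusted p = 8.69e-17). For both genes the 3 CpG libraries differed little and stood far above every unstimulated one. Ptges encodes the inducible prostaglandin E synthase (chromosome 2, 30889471 to 30929863). It read 15.3, 108 and 37.3 in the unstimulated libraries and 3728, 9995 and 9264 with CpG (log2 change 7.43 ± 0.48, adjusted p = 9.77e-12). Csf3, a growth factor for neutrophils, read 8.74, 0 and 0.369 in the unstimulated libraries and 153, 516 and 549 with CpG (log2 change 7.21 ± 0.62, adjusted p = 1.54e-09). In Ptges and Csf3 replicate 1 was the lowest CpG library, yet above all unstimulated libraries. Gpr31b, a G protein-coupled receptor gene, changed by 6.52 ± 0.30, the kinase gene Pim2 by 6.49 ± 0.36 and Mir155hg, the host transcript of miR-155, by 5.62 ± 0.64. The zinc finger gene Zfp811 read 0.904, 0 and 3.21 in the unstimulated libraries and 212, 324 and 368 with CpG, and Flvcr2, a membrane transporter gene, 0, 4.66 and 1.02 in the unstimulated libraries and 393, 142 and 144 with CpG. Zfp811 was even across the CpG libraries, while Flvcr2 was highest in replicate 1.

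Lox, which cross-links collagen, read 8.62, 433 and 88.1 in the unstimulated libraries and 6065, 8565 and 8479 with CpG (log2 change 6.73 ± 0.70, adjusted p = 3.55e-08). Its unstimulated values followed the fibroblast markers, which summed to 65.8, 4572 and 599 there. With CpG, Lox was at 6065 in replicate 1, where those markers summed to 63.0. Leaving out each of the 6 libraries in turn did not end the call of any of the 30 highest or 25 lowest genes, or move its change by over 1.5 times.

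Among the 25 lowest genes, with log2 changes from -5.56 to -7.95, were purinergic receptor, lipid and iron genes. Hpgd, which breaks down prostaglandins (chromosome 8, 56294585 to 56321043), lay at 4013, 3300.1 and 3082 in the unstimulated libraries and 24.7, 32.9 and 30.2 with CpG (log2 change -6.84 ± 0.36, adjusted p = 3.34e-13). Rnf144b, a ubiquitin ligase gene, read 234, 194 and 218 in the unstimulated libraries and 0, 0 and 4.43 with CpG (log2 change -6.94 ± 0.48, adjusted p = 3.08e-11), and Slc40a1, the iron exporter ferroportin, 371, 205 and 231 in the unstimulated libraries and 0, 2.4 and 10.2 with CpG (log2 change -6.28 ± 0.59, adjusted p = 6.60e-09). In all 3 genes each CpG library was far below every unstimulated one. Rgs2, a brake on G protein signalling, read 1217, 1679 and 1723 in the unstimulated libraries and 36.3, 28.6 and 17.7 with CpG (log2 change -5.79 ± 0.29, adjusted p = 1.25e-13), and Hacd4, an enzyme gene of long-chain fatty acid synthesis, 971, 1061 and 1025 in the unstimulated libraries and 16.8, 16.2 and 29.6 with CpG (log2 change -5.60 ± 0.21, adjusted p = 7.24e-16). Havcr2, the checkpoint receptor Tim-3, read 873, 904 and 823 in the unstimulated libraries and 0, 30.1 and 22 with CpG, a change of -6.60 ± 0.68 that came to -5.02 without CpG replicate 1. The phosphodiesterase gene Pde4d changed by -5.80 ± 0.59, the sterol 27-hydroxylase gene Cyp27a1 by -5.56 ± 0.73 and Cd34, a sialomucin gene, by -6.03 ± 0.87.

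**Figure D3:**
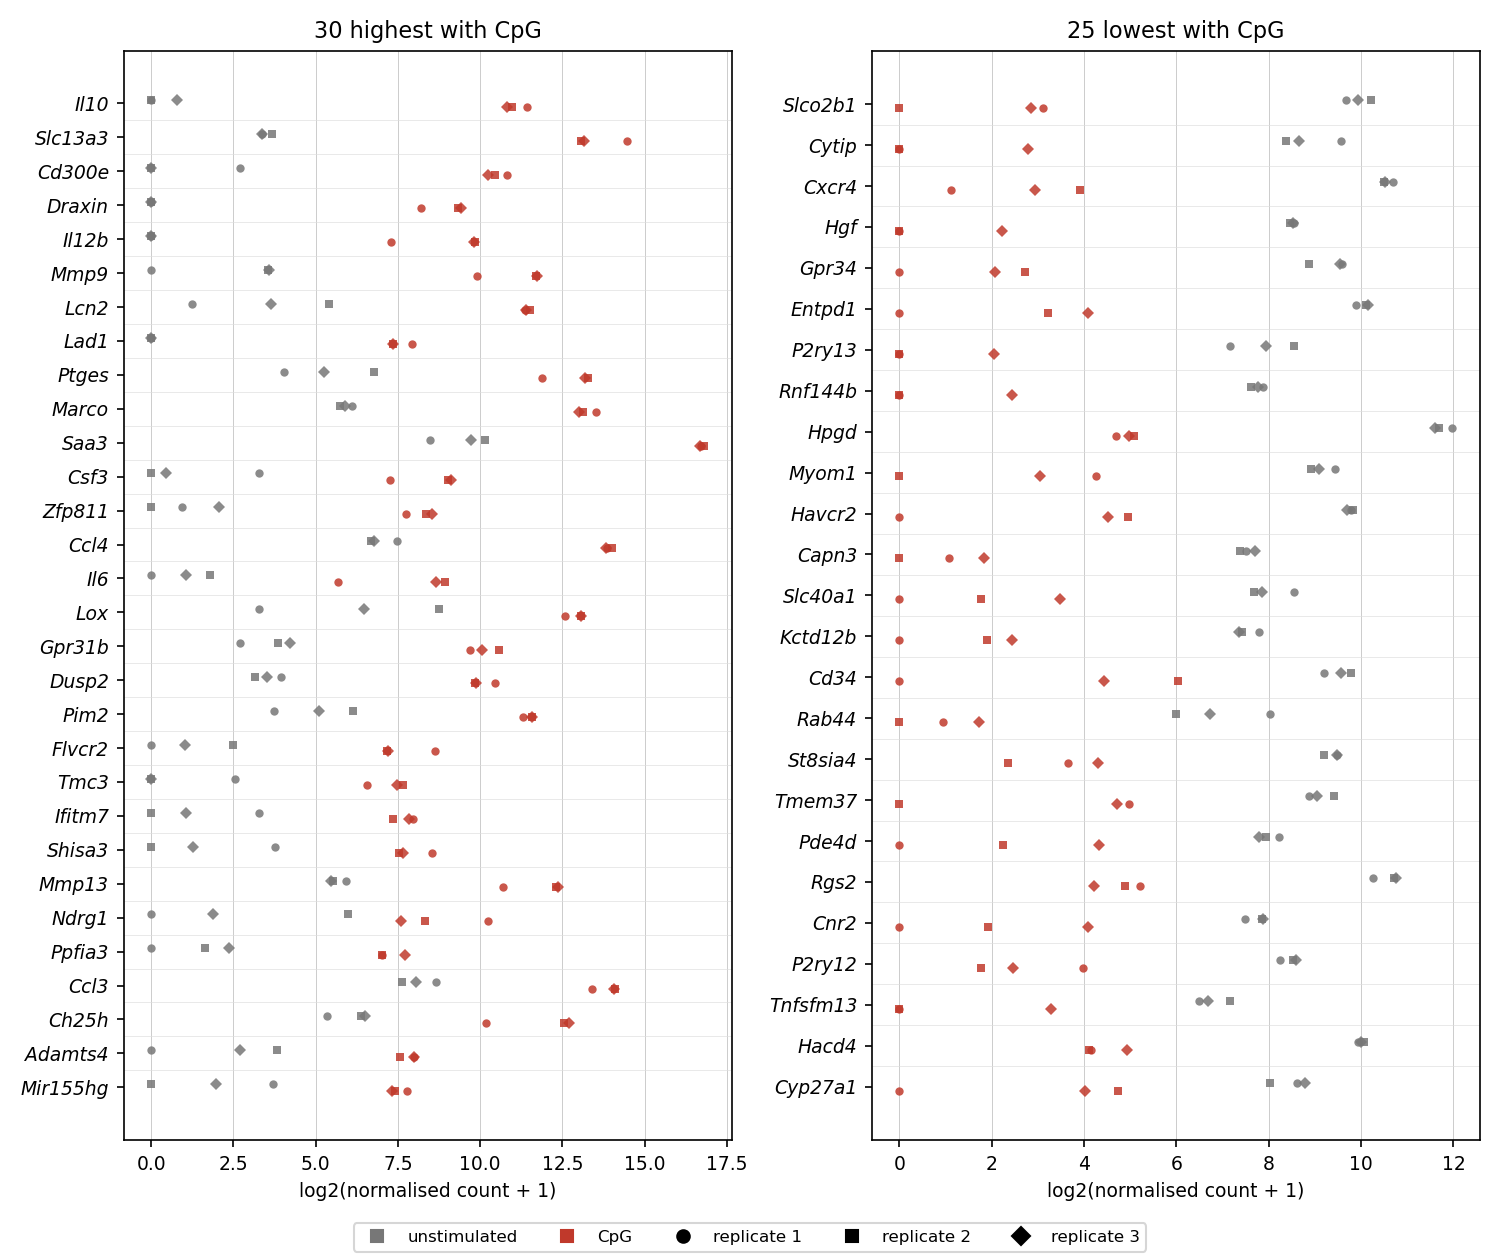
Level of the 30 highest (left) and 25 lowest genes (right) in each library, as log2(normalised count + 1); grey marks are unstimulated and red marks CpG libraries, and the marker shape gives the replicate. In every gene the red and grey marks are apart, and replicate 1 (circles) stands apart from the other CpG libraries in several genes, such as Il6 (50.7 against 488 and 403) and Flvcr2 (393 against 142 and 144).

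Promoter sequence from the RefSeq tables (GRCm38.p6; 250 bases before to 50 after a gene's start) was at hand for 10272 of the genes tested and 23 of the 30 highest. The 4 sequences printed are from the only genes among these 23 that hold any of the 4 motifs searched, so they are not typical of the set. They show what letters stand in front of these 4 genes. Each line gives the 250 bases before the start, 5′ to 3′ on the gene's strand, and capitals mark motif matches: NF-kB (GGGNN followed by TTTCC) in Marco and Il6, AP-1 (TGANTCA) in Il6 and Mmp13, and the interferon-stimulated response element (GAAANN followed by GAAA) in Saa3 and, on the other strand, in Mmp13.
Marco (chr1:120505025-120505274, minus strand): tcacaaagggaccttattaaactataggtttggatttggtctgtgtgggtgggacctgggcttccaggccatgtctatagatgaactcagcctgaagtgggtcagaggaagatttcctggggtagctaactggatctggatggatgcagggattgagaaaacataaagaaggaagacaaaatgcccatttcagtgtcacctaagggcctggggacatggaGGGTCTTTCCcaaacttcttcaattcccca
Saa3 (chr7:46715677-46715926, minus strand): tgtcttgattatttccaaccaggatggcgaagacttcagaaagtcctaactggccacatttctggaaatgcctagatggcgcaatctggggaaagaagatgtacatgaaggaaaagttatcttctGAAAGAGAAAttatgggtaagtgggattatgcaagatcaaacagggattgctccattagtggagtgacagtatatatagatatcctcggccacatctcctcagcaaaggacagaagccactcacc
Il6 (chr5:30012864-30013113, plus strand): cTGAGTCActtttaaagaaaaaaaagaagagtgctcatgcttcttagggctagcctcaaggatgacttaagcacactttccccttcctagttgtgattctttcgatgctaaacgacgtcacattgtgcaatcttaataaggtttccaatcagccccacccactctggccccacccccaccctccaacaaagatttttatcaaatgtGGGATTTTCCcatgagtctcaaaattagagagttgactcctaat
Mmp13 (chr9:7272264-7272513, plus strand): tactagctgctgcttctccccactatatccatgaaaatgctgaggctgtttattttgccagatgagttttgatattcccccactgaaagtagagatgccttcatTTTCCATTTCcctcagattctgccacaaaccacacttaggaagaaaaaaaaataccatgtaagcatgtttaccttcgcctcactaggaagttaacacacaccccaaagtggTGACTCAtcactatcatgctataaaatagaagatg
The NF-kB letters began 30 bases before the start of Marco and 44 before that of Il6. Over both strands, this motif was in 2.23% of 2327 promoter windows of genes called higher, in 1.79% of 2790 windows of genes called lower and in 1.71% of 13144 windows of all genes tested. AP-1 letters were in 5.46, 5.27 and 5.34% of the same windows, the interferon element in 3.01, 4.12 and 3.36%, and a STAT motif (TTCCNGGAA) in 1.20, 1.08 and 1.20%. The NF-kB and STAT motifs share the letters TTCC and can overlap. A match is one of letters, not a site shown to be bound.

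The genes of the receptor's own pathway moved in both directions. Tlr9 itself fell, from 359, 439 and 436 to 65.4, 49.4 and 47.8 (log2 change -2.91 ± 0.21, adjusted p = 8.22e-11), and no CpG library reached the lowest unstimulated one. Unc93b1, its chaperone, read 5424, 5189 and 5159.5 in the unstimulated libraries and 5811, 5254 and 5979 with CpG and was not called (adjusted p = 0.535). Of 29 genes of TLR9 sensing and signalling, 7 rose and 11 fell, with a median change of 0.01 (-0.17 with quantile scaling). The inhibitory kinase-like gene Irak3 read 193, 192 and 201 in the unstimulated libraries and 1078, 1786 and 1703 with CpG (log2 change 2.92 ± 0.14, adjusted p = 5.69e-14). Myd88 read 585, 571 and 521 in the unstimulated libraries and 1169.7, 893 and 829 with CpG (0.77 ± 0.11), the adaptor Pik3ap1 changed by 1.72 ± 0.10 and the kinase gene Map3k8 by 1.24 ± 0.15. The kinase Irak4, by contrast, changed by -1.49 ± 0.18, and the transcription factor genes Irf8 and Irf7 by -1.32 ± 0.25 and -1.03 ± 0.09. The proteases that process the receptor also fell, with changes of -1.67 ± 0.11 for Ctss and -1.49 ± 0.11 for Ctsb. Without CpG replicate 1 the counts were 8 and 12, and the change of Irf8 was -0.87.

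Among 19 other Toll-like receptors and partners, 4 rose and 11 fell, with a median of -0.997, and without CpG replicate 1 the counts were 6 and 8. Tlr1, a partner of Tlr2 in sensing bacterial lipopeptides, read 471, 363 and 484 in the unstimulated libraries and 3029, 2498 and 2344 with CpG (log2 change 2.58 ± 0.15, adjusted p = 1.72e-12). It was the only receptor gene of the family called higher with all libraries in the fit. Tlr13, a sensor of bacterial ribosomal RNA in mice, changed by -3.07 ± 0.19, Tlr3 by -1.90 ± 0.21, Tlr4 by -1.84 ± 0.22, Tlr8 by -1.53 ± 0.16 and Tlr7 by -1.51 ± 0.11. Ly86, the partner of Cd180, read 3192, 3675 and 3746 in the unstimulated libraries and 370, 707 and 527 with CpG (-2.77 ± 0.18), whereas Cd180 itself changed by 0.86 ± 0.14.

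NF-kB factors, inhibitors and feedback genes mostly rose: 16 of 22 were called higher and 3 lower, with a median of 1.34, and 16 and 2 without CpG replicate 1. Traf1, a signalling adaptor, read 11.6, 30.9 and 55.7 in the unstimulated libraries and 837, 987 and 1027 with CpG (log2 change 5.06 ± 0.29, adjusted p = 1.01e-12). Tnip3, a partner of the inhibitor A20, read 197, 69.1 and 119.6 in the unstimulated libraries and 3416, 3431 and 2841 with CpG, and Nfkbiz, a nuclear co-regulator, 323, 217 and 240.1 in the unstimulated libraries and 7582, 5041 and 5337 with CpG. The groups were far apart in all 3 genes. The inhibitor Nfkbia changed by 2.46 ± 0.09, Zc3h12a, which degrades cytokine mRNA, by 2.78 ± 0.17, and Tnfaip3 (A20) by 1.55 ± 0.21. Lower were Rela, Cyld and Nfkbie, at -0.30 ± 0.11, -0.42 ± 0.16 and -1.07 ± 0.18. Of these, Rela lost its call without CpG replicate 1 (adjusted p = 0.0582) or 2 or unstimulated replicate 2 or 3, with adjusted p up to 0.107. Cyld lost it without any 1 library other than CpG replicate 1, with adjusted p up to 0.250. Of 31 MAP kinase phosphatase, AP-1 and Egr genes, 10 rose and 6 fell, with a median of 0.03 (0.38 with quantile scaling), and 10 and 4 were called without CpG replicate 1. Dusp2, a phosphatase of MAP kinases, read 14.5, 7.97 and 10.5 in the unstimulated libraries and 1402, 915 and 939.6 with CpG (log2 change 6.51 ± 0.43, adjusted p = 1.26e-11), Dusp1 changed by 2.08 ± 0.19 and Batf, an AP-1 family factor, by 4.15 ± 0.28. The AP-1 genes Fosl2 and Fos changed by -2.12 ± 0.23 and -1.19 ± 0.20, and Dusp6 by -1.56 ± 0.21.

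Of 21 proinflammatory cytokine genes, 8 rose and 3 fell, with a median of 1.14, and 11 and 3 without CpG replicate 1, with a median of 1.72. Il6 read 0, 2.43 and 1.07 in the unstimulated libraries and 50.7, 488 and 403 with CpG (log2 change 6.82 ± 0.67, adjusted p = 1.45e-08). Tnf read 129, 81.3 and 72.5 in the unstimulated libraries and 2152, 3621 and 3716 with CpG (log2 change 5.06 ± 0.21, adjusted p = 2.77e-15). Il27, a cytokine subunit gene, changed by 3.99 ± 0.58, and its partner Ebi3 by 2.64 ± 0.16. The Il6 values show replicate 1 far below the other CpG libraries, while in Tnf the gap was smaller. Il1b read 4712, 2831 and 3782 in the unstimulated libraries and 1919, 6384 and 6425 with CpG and was not called (log2 change 0.21 ± 0.34, adjusted p = 0.676). Without CpG replicate 1, whose value lay below all unstimulated ones, its change was 0.79 (adjusted p = 0.0246). Il1a read 14.204, 101 and 82.6 in the unstimulated libraries and 68.3, 1748 and 1855 with CpG (log2 change 3.59 ± 0.85, adjusted p = 0.00175), and its change was 5.15 without that library. Il15 and Il18 fell, at -2.21 ± 0.22 and -1.59 ± 0.26, and Osm was the third cytokine gene that fell. Replicate 1 was also the CpG library with the lowest astrocyte and fibroblast markers (82.3 and 63.0), whose part in its low cytokine values was not tested.

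Chemokine genes also rose more often than they fell, with 13 of 21 called higher and 4 lower (median 1.69; 14 and 4, median 2.31, without CpG replicate 1). Ccl4 and Ccl3, attractants of leukocytes, were high in all CpG libraries. Ccl4 read 178, 101 and 108 in the unstimulated libraries and 14794, 16382 and 14572 with CpG (log2 change 6.92 ± 0.21, adjusted p = 1.72e-17), and Ccl3 399.9, 198 and 263 in the unstimulated libraries and 10797, 17507 and 17130.1 with CpG (log2 change 5.74 ± 0.25, adjusted p = 1.34e-14). In contrast, the monocyte attractants Ccl2 and Ccl7 were uneven: Ccl2 read 20.5, 88.4 and 59.3 in the unstimulated libraries and 91.3, 1371 and 1014 with CpG (log2 change 3.37 ± 0.74, adjusted p = 0.000811) and Ccl7 1.09, 13.4 and 21 in the unstimulated libraries and 82.9, 508 and 384 with CpG (log2 change 4.86 ± 0.89, adjusted p = 0.000122). Cxcl3, an attractant of neutrophils, read 16.3, 367 and 374 with CpG, and its replicate 1 lay below all unstimulated values (18.6, 22.3 and 25.2). Its change of 2.55 ± 0.89 was 4.02 without that library and lost its call without any other 1 of the 6 libraries (adjusted p up to 0.155). Cxcl14, Ccl24 and Ccl6 fell, at -2.61 ± 0.29, -2.65 ± 0.67 and -2.38 ± 0.53. Ccl24 missed the threshold with quantile scaling (adjusted p = 0.0510), and Ccl6 was at -1.34 without CpG replicate 1. Reads may be split between closely related Ccl genes, so their single values are uncertain.

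Receptors for such signals went down more often than up. Of 22 chemokine and chemoattractant receptors 4 rose and 12 fell (median -0.88; 4 and 11 without CpG replicate 1). The formyl peptide receptor genes rose: Fpr1 read 479.7, 496 and 515 in the unstimulated libraries and 3234, 5635 and 5438 with CpG (log2 change 3.22 ± 0.15, adjusted p = 4.16e-14) and Fpr2 changed by 2.82 ± 0.16. Ccr7 read 0, 1.68 and 0 in the unstimulated libraries and 0, 35.7 and 13.2 with CpG (log2 change 2.53 ± 0.90, adjusted p = 0.0311). Its change was 4.04 without CpG replicate 1, and the call was lost without CpG replicate 2 or 3 or unstimulated replicate 1 or 3 (adjusted p 0.0950 to 0.232). S1pr1, a sphingosine phosphate receptor, read 1337, 1139.8 and 1190.4 in the unstimulated libraries and 81.4, 38.4 and 77.4 with CpG (log2 change -4.27 ± 0.22, adjusted p = 1.37e-13), and Gpr183, an oxysterol receptor, 292, 174 and 237 in the unstimulated libraries and 6.84, 10.3 and 7.7 with CpG (log2 change -4.65 ± 0.64, adjusted p = 2.92e-06). Each CpG value of S1pr1 and Gpr183 was far below the lowest unstimulated one. C5ar2, Ptafr and Cmklr1 changed by -2.68 ± 0.27, -2.50 ± 0.15 and -2.21 ± 0.19.

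Anti-inflammatory genes around Il10 moved in both directions. Among 27 such genes 10 rose and 12 fell (median -0.19; 10 and 11 without CpG replicate 1). Il1rn, the antagonist of the interleukin-1 receptor, read 331, 255 and 235 in the unstimulated libraries and 5333, 7379 and 7704 with CpG (log2 change 4.63 ± 0.18, adjusted p = 1.67e-15). Socs3, an inhibitor of cytokine signalling, read 181, 314 and 291 in the unstimulated libraries and 3886, 5521 and 5813 with CpG (log2 change 4.29 ± 0.23, adjusted p = 3.54e-13). The receptor gene Il10ra read 2374, 1824 and 2029 in the unstimulated libraries and 846, 866 and 806 with CpG (-1.30 ± 0.11), and Il10rb changed by -0.71 ± 0.08. Tgfbr1, a receptor of TGF-β, changed by -2.13 ± 0.15, the inhibitor Smad7 by -2.23 ± 0.31 and Socs2 by -4.28 ± 0.57.

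In the prostaglandin and leukotriene genes, 5 of 20 rose and 10 fell (median -0.47; 5 and 9 without CpG replicate 1). The inducible cyclooxygenase gene Ptgs2 read 66.2, 349 and 102 in the unstimulated libraries and 1214, 4348 and 3995 with CpG (log2 change 4.37 ± 0.50, adjusted p = 2.06e-07), and Ptges, which acts after it, is given above. The other cyclooxygenase gene, Ptgs1, read 543, 1622 and 1198 in the unstimulated libraries and 6.04, 63.8 and 72.3 with CpG (log2 change -4.98 ± 0.71, adjusted p = 4.80e-06), and the breakdown enzyme Hpgd fell as described. So the 2 inducible steps of prostaglandin E2 synthesis rose while Ptgs1 and Hpgd fell. The prostaglandin E2 receptor genes Ptger2 and Ptger4 changed by -3.02 ± 0.64 (-1.63 without CpG replicate 1) and -1.66 ± 0.16. Of the leukotriene genes, Alox5 read 96.4, 161 and 107 in the unstimulated libraries and 16.9, 6.15 and 13.3 with CpG (-3.29 ± 0.73) and its partner Alox5ap 459.5, 1037 and 863 in the unstimulated libraries and 102, 193 and 115 with CpG (-2.49 ± 0.46).

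Matrix proteases and inhibitors counted 11 higher and 2 lower of 23 (median 1.13), and 13 and 3 without CpG replicate 1 (median 1.85). The collagenase Mmp13 read 60.1, 45.4 and 43.5 in the unstimulated libraries and 1672, 5062 and 5231 with CpG (log2 change 6.14 ± 0.40, adjusted p = 1.13e-11), Mmp8 56.8, 72.3 and 69 in the unstimulated libraries and 268, 947 and 985 with CpG (log2 change 3.24 ± 0.37, adjusted p = 1.90e-07) and the elastase Mmp12 299.6, 235 and 266 in the unstimulated libraries and 608, 2179.6 and 2357 with CpG (log2 change 2.46 ± 0.47, adjusted p = 0.000178). In all 3 genes replicate 1 was far below the other CpG libraries, and above every unstimulated value. Adamts4, which cleaves aggrecan, read 0, 13.3 and 5.55 in the unstimulated libraries and 251, 189.9 and 255 with CpG (log2 change 5.67 ± 0.66, adjusted p = 2.48e-07). The inhibitor Timp2 changed by -0.82 ± 0.23 (adjusted p = 0.0533 without CpG replicate 2) and the plasminogen activator Plau by -1.80 ± 0.25. Timp1, listed among the inhibitors, read 0, 472 and 77.7 in the unstimulated libraries and 1.48, 394 and 398 with CpG and was not called (adjusted p = 0.654). Its values ran with the fibroblast markers in both groups, whose part in the result was not tested.

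Of 17 secreted antibacterial and acute-phase genes 7 rose and 1 fell (median 1.77; 9 and 1, median 2.51, without CpG replicate 1). Cp, the copper-carrying ceruloplasmin, read 36.2, 209 and 223 in the unstimulated libraries and 4236, 5193 and 4340.5 with CpG (log2 change 5.25 ± 0.41, adjusted p = 2.57e-10). S100a8, a calcium-binding protein of myeloid cells, read 5.47, 21.9 and 18.8 in the unstimulated libraries and 377, 258 and 276 with CpG (log2 change 4.39 ± 0.44, adjusted p = 1.99e-08). The related gene S100a9, also listed, read 0 in all 6 libraries and did not enter the fit. Camp, an antimicrobial peptide gene, was listed at 0 in the unstimulated libraries and at 20.4, 27.4 and 38.4 with CpG. Lyz2, lysozyme of macrophages, read 180241, 176325 and 186112 in the unstimulated libraries and 83952, 115177 and 99061 with CpG (log2 change -0.88 ± 0.16, adjusted p = 0.000138). With quantile scaling its change was -0.27 and was not called (adjusted p = 0.472).

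Nitric oxide, arginine and itaconate genes counted 10 higher and 3 lower of 19 (median 1.03; 11 and 3, median 1.49, without CpG replicate 1). Nos2, the inducible nitric oxide synthase, read 0, 10.8 and 6.47 in the unstimulated libraries and 17.5, 322 and 379.7 with CpG (log2 change 4.89 ± 0.82, adjusted p = 4.09e-05). Acod1, which makes itaconate, read 129, 90.8 and 171 in the unstimulated libraries and 1217, 4678 and 4789 with CpG (log2 change 4.57 ± 0.33, adjusted p = 8.40e-11), and the arginine importer Slc7a2 15.4, 113 and 45.7 in the unstimulated libraries and 161, 964 and 1266 with CpG (log2 change 3.72 ± 0.56, adjusted p = 1.08e-05). Replicate 1 was the lowest CpG library in all 3 genes, and for Nos2 it was near the highest unstimulated value. The arginase gene Arg1 read 11.6, 105 and 128 in the unstimulated libraries and 13.8, 860 and 1306 with CpG and was not called (log2 change 2.20 ± 1.19, adjusted p = 0.161), but its change was 4.25 (adjusted p = 0.00102) without CpG replicate 1. The other arginase gene, Arg2, read 179, 193 and 189.6 in the unstimulated libraries and 0, 5.49 and 10.1 with CpG (log2 change -5.50 ± 0.51, adjusted p = 5.06e-09). The polyamine genes Azin1 and Odc1 rose, at 1.87 ± 0.18 and 1.27 ± 0.21, whereas Sat1, which starts polyamine breakdown, fell (-2.27 ± 0.12).

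Genes of sugar use and hypoxia, and of protein folding, rose more often than they fell. Of 28 genes of glycolysis, glucose uptake and hypoxia 16 rose and 3 fell (median 0.69; 18 and 3 without CpG replicate 1). Adm, the hypoxia-induced peptide adrenomedullin, read 7.58, 40 and 8.04 in the unstimulated libraries and 589, 693 and 613 with CpG (log2 change 5.42 ± 0.35, adjusted p = 9.77e-12). Pfkfb3 changed by 1.95 ± 0.18, Pgk1 by 1.79 ± 0.16, Gapdh by 1.38 ± 0.19 and the glucose transporter gene Slc2a1 by 1.27 ± 0.22. Vegfa, a hypoxia-responsive growth factor, went the other way (-2.37 ± 0.54; -1.10 without CpG replicate 1). In the unfolded protein and heat shock genes, 20 of 25 rose and 1 fell (median 1.07; 21 and 1 without CpG replicate 1). Hsp90aa1 read 1077, 1224 and 1065 in the unstimulated libraries and 4208, 5031 and 4930.3 with CpG (log2 change 2.07 ± 0.15, adjusted p = 8.33e-11), and Hspa5, the chaperone BiP, 2075, 2777 and 2278 in the unstimulated libraries and 7408, 7862 and 7006 with CpG (log2 change 1.65 ± 0.12, adjusted p = 5.69e-11). Both genes were even across the CpG libraries. Ern1, the stress sensor that splices Xbp1, was the 1 that fell (-1.04 ± 0.18).

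Antioxidant, NADPH oxidase and iron genes counted 15 higher and 12 lower of 32 (median 0.26; 16 and 11 without CpG replicate 1). Sod2, the mitochondrial superoxide dismutase, read 814, 657 and 768 in the unstimulated libraries and 6190.2, 9666 and 9933 with CpG (log2 change 3.50 ± 0.13, adjusted p = 6.98e-16), and Rac2, a subunit of the phagocyte oxidase, changed by 2.58 ± 0.12. Of the iron genes, the importers Slc39a14 and Tfrc rose, at 2.47 ± 0.27 and 2.06 ± 0.28, as did the storage gene Fth1 at 0.94 ± 0.13. The exporter Slc40a1 fell, as given above. Gpx4 and Gpx1, glutathione peroxidases, changed by -1.59 ± 0.20 and -1.40 ± 0.15, and Nfe2l2, the regulator Nrf2, by -1.31 ± 0.12.

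Lysosome and sterol genes mostly fell. Of 30 lysosomal genes 22 fell and 2 rose (median -0.85; 23 and 2 without CpG replicate 1). Ctsd read 60506, 87151 and 72458 in the unstimulated libraries and 12023, 20803 and 20159.7 with CpG (log2 change -2.08 ± 0.22, adjusted p = 5.18e-08), and Lipa, the lysosomal acid lipase, 6682, 4690.5 and 5884 in the unstimulated libraries and 1292, 1256 and 1198 with CpG (log2 change -2.19 ± 0.11, adjusted p = 2.07e-13). The pump subunit Atp6v1h was one of the 2 that rose (0.93 ± 0.10). Of 24 cholesterol synthesis and uptake genes 16 fell and none rose by limma (median -0.93), with 17 lower and 0 higher at an unadjusted p under 0.05, and 15 fell without CpG replicate 1. Cyp51 changed by -1.54 ± 0.34, Mvd by -1.52 ± 0.30 and Insig1 by -1.48 ± 0.22. In 19 genes of LXR targets and fatty acid synthesis 3 rose and 9 fell (median -1.01; 2 and 9 without CpG replicate 1). Ch25h, which makes 25-hydroxycholesterol, rose, at 39.3, 82.4 and 90 in the unstimulated libraries and 1166, 5997 and 6587 with CpG (log2 change 5.73 ± 0.42, adjusted p = 1.08e-10). Apoe, the lipid carrier, read 266484, 229072 and 225532 in the unstimulated libraries and 81760.3, 71569.7 and 71932 with CpG (log2 change -1.68 ± 0.16, adjusted p = 8.93e-09), and the cholesterol exporters Abca1 and Abcg1 changed by -1.26 ± 0.13 and -1.25 ± 0.13.

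**Figure D4:**
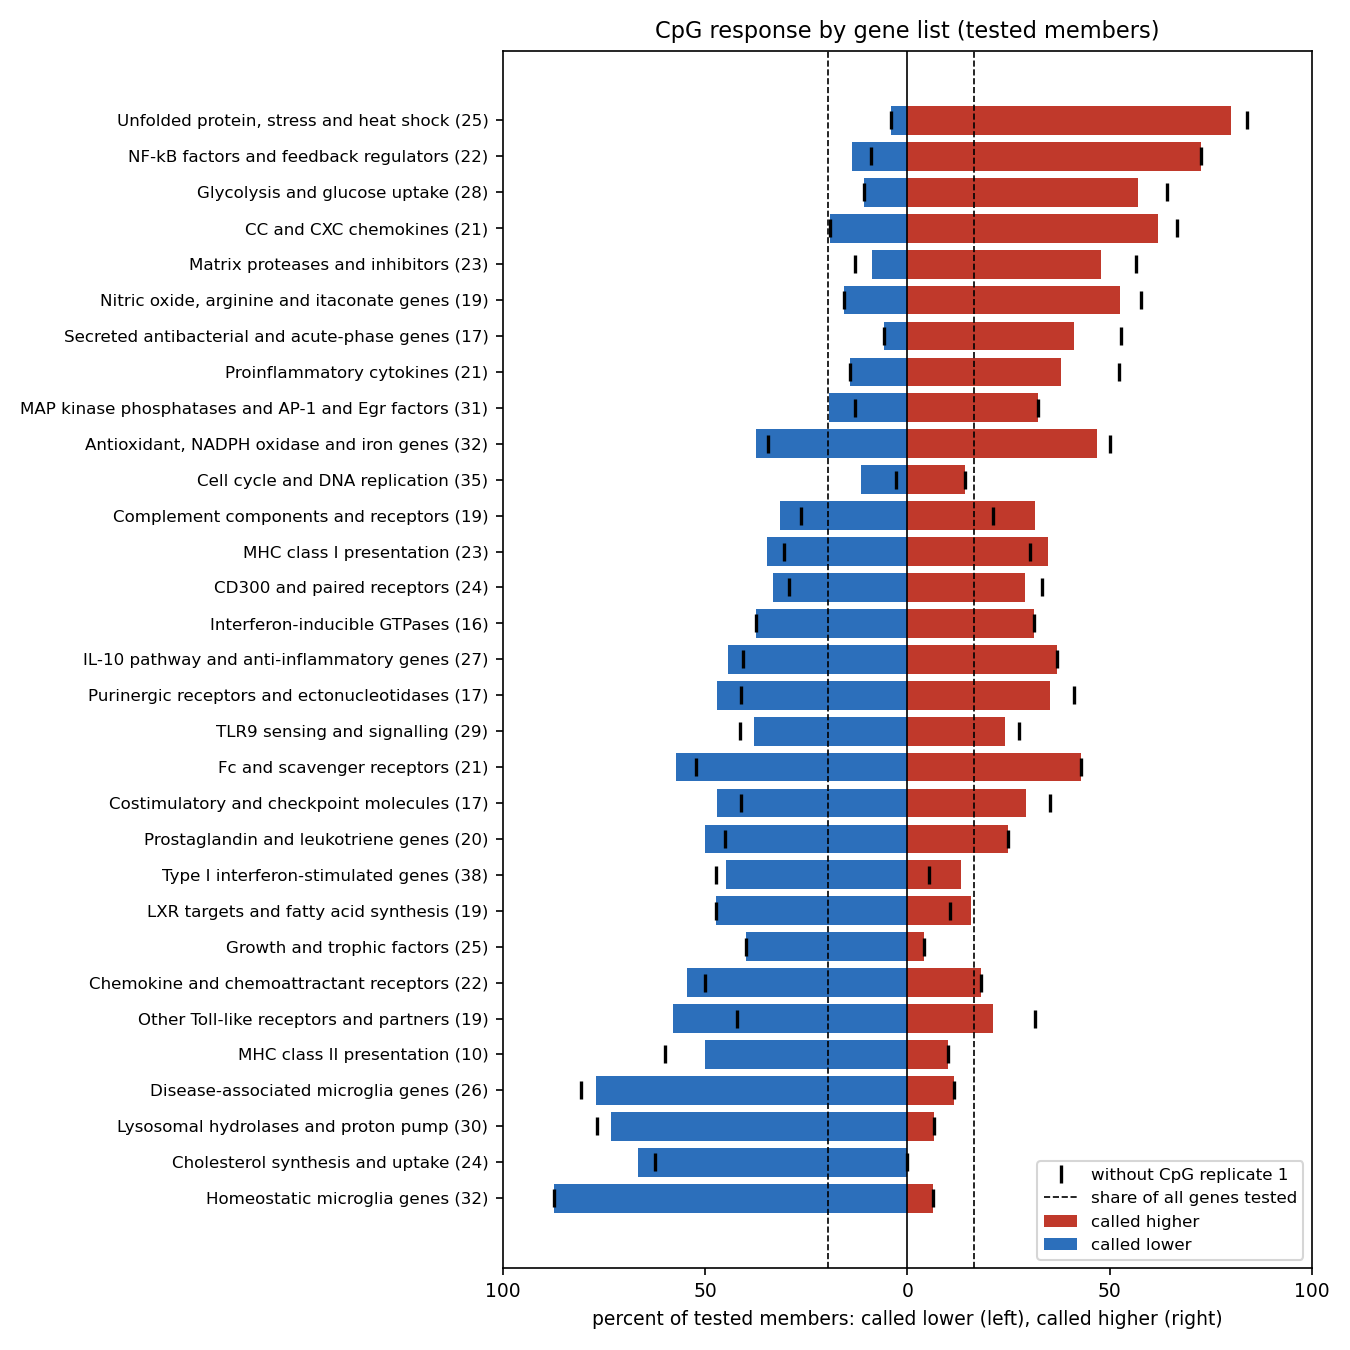
Share of the tested members of 31 gene lists called higher (red, right) and lower (blue, left) with CpG, in percent; the number of tested members stands in parentheses, black ticks give the shares without CpG replicate 1 and dashed lines the shares of all genes tested (16.5% higher, 19.6% lower). Unfolded protein, NF-kB and chemokine genes reach furthest to the right, and homeostatic, disease-associated and lysosomal genes furthest to the left.

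Of the genes that mark resting microglia, 28 of 32 fell and 2 rose (median -1.76), with the same counts without CpG replicate 1. Sall1, a transcription factor of microglial identity, read 594, 612 and 588 in the unstimulated libraries and 125, 115 and 152 with CpG (log2 change -2.19 ± 0.18, adjusted p = 5.36e-10). Itgb5, an integrin subunit gene, read 7471, 9652 and 8618 in the unstimulated libraries and 699, 939 and 779 with CpG (log2 change -3.41 ± 0.16, adjusted p = 3.80e-14). In both genes the CpG libraries lay close together. The growth factor receptor Csf1r changed by -2.47 ± 0.13 and the phagocytic receptor Mertk by -2.79 ± 0.14. Gpr84, a receptor for medium-chain fatty acids, was among the 2 that rose, at 303, 355 and 445 in the unstimulated libraries and 1595, 3210 and 3537 with CpG (log2 change 2.85 ± 0.22, adjusted p = 2.02e-10), and Maf was the other (1.17 ± 0.10). Fcrls was one of the members not called. It read 5097, 5326 and 5196 in the unstimulated libraries and 9769.6, 1953 and 1820.3 with CpG (log2 change -0.67 ± 0.40, adjusted p = 0.206; adjusted p = 0.0407 with quantile scaling), with replicate 1 above and replicates 2 and 3 below all unstimulated libraries.

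Genes known to be raised in disease-associated microglia mostly fell: 20 of 26 fell and 3 rose (median -1.58; 21 and 3 without CpG replicate 1). Trem2, a lipid-sensing receptor, read 4870.1, 4634 and 4715 in the unstimulated libraries and 311, 487 and 385 with CpG (log2 change -3.61 ± 0.25, adjusted p = 3.39e-11), and Gpnmb, a transmembrane glycoprotein gene, 13078, 8636 and 9679 in the unstimulated libraries and 659, 516 and 639.8 with CpG (log2 change -4.10 ± 0.17, adjusted p = 5.14e-15). Spp1 (osteopontin) read 11393, 15293 and 15181 in the unstimulated libraries and 446, 3147 and 3195 with CpG (log2 change -3.07 ± 0.44, adjusted p = 5.99e-06) and Clec7a, a receptor of fungal glucans, 1784, 2123 and 2256 in the unstimulated libraries and 77.5, 801 and 768 with CpG (log2 change -2.49 ± 0.56, adjusted p = 0.00113). In the last 2 genes replicate 1 lay far below the other CpG libraries, which were themselves below every unstimulated one. Clec7a changed by -1.38 without it. Itgax, an integrin subunit gene of this list, rose, at 30.2, 15.7 and 33.2 in the unstimulated libraries and 72.2, 209.8 and 149 with CpG (2.34 ± 0.62).

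Receptors for antibodies and particles moved in both directions. Of 21 Fc and scavenger receptor genes 9 rose and 12 fell (median -0.64; 9 and 11 without CpG replicate 1). After Marco, the highest were Clec4e, a receptor of mycobacterial glycolipid, with 140.3, 143 and 238 in the unstimulated libraries and 1126, 2483 and 2539 with CpG (log2 change 3.50 ± 0.24, adjusted p = 2.59e-11), Olr1 (2.47 ± 0.52) and Msr1 (2.01 ± 0.18). Clec4n, Mertk and Mrc1 were lowest, at -3.02 ± 0.22, -2.79 ± 0.14 and -2.63 ± 0.42. The Fc receptor genes divided, with Fcgr4 at 1.23 ± 0.20, Fcgr2b at 0.80 ± 0.22 and Fcgr3 at -2.17 ± 0.14. Fcgr4 was highest in CpG replicate 1 (2596, 1202 and 1024) and Fcgr2b lowest there (2745, 6557 and 6235), with a change of 1.20 without that library. Among 24 CD300 and paired receptors 7 rose and 8 fell (median -0.08; 0.18 with quantile scaling; 8 and 7 without CpG replicate 1). Siglece, an inhibitory sialic acid receptor, read 76.2, 126 and 68.8 in the unstimulated libraries and 2084, 1943 and 1632 with CpG (log2 change 4.41 ± 0.22, adjusted p = 1.25e-13) and Clec12a 461, 448 and 483 in the unstimulated libraries and 3865, 2862 and 3012 with CpG (2.79 ± 0.15). Cd300a and Cd300lf, inhibitory lipid receptors, changed by -3.57 ± 0.32 and -3.47 ± 0.47. Reads may be split between members of these families.

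Adenosine and nucleotide receptors divided in the same way, with 6 of 17 higher and 8 lower (median 0.39; 7 and 7 without CpG replicate 1). The adenosine receptor genes Adora2a and Adora2b read 0, 25.3 and 6.94 in the unstimulated libraries and 98.4, 49.4 and 75.1 with CpG (log2 change 3.61 ± 0.75, adjusted p = 0.000467) and 20.8, 62.2 and 45.4 in the unstimulated libraries and 201, 401 and 389 with CpG (log2 change 2.98 ± 0.35, adjusted p = 2.87e-07). Without unstimulated replicate 1, which was at 0, the change of Adora2a was 2.33. P2ry2 changed by 2.43 ± 0.19. The homeostatic receptor P2ry13 read 143, 372 and 245 in the unstimulated libraries and 0, 0 and 3.15 with CpG (log2 change -7.20 ± 0.46, adjusted p = 1.03e-11) and P2ry12 301, 369 and 385 in the unstimulated libraries and 14.6, 2.41 and 4.55 with CpG (log2 change -5.72 ± 0.49, adjusted p = 1.87e-09). Of the ATP-gated channels, P2rx7 changed by -1.83 ± 0.32 and P2rx4 by -0.65 ± 0.10. Complement genes counted 6 higher and 6 lower of 19 (median 0.19; 4 and 5 without CpG replicate 1): C3 changed by 1.09 ± 0.13 and its receptor gene Itgam by 1.26 ± 0.12, against -0.82 ± 0.13 for C1qa, a subunit of the first component.

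Antigen presentation showed no common direction. MHC class I presentation genes counted 8 higher and 8 lower of 23 (median -0.20; 7 and 7 without CpG replicate 1), from 1.67 ± 0.16 for the proteasome activator Psme2 to -1.33 ± 0.17 for Tapbpl. Of 10 class II genes 1 rose and 5 fell, with a median of -0.86 (1 and 6 without CpG replicate 1). The 1 that rose was H2-Ab1, at 29.3, 26 and 16 in the unstimulated libraries and 73.1, 90.1 and 102 with CpG (log2 change 1.88 ± 0.27, adjusted p = 6.54e-06), while its chaperone Cd74 read 1775, 1722 and 1871 in the unstimulated libraries and 776, 928 and 858 with CpG (log2 change -1.07 ± 0.12, adjusted p = 9.52e-08). Against all 6 unstimulated wild-type libraries of both number series the change of H2-Ab1 was -0.12 and was not called. Of 17 costimulatory and checkpoint genes 5 rose and 8 fell (median -0.67; 0.07, with 6 and 7 called, without CpG replicate 1). Cd40 read 26.5, 8.68 and 13 in the unstimulated libraries and 166, 258 and 208 with CpG (log2 change 3.75 ± 0.43, adjusted p = 2.06e-07), Cd274, the ligand of PD-1, 257, 262 and 352 in the unstimulated libraries and 1025, 2093 and 2088 with CpG (log2 change 2.52 ± 0.20, adjusted p = 3.95e-10), and Cd86 536, 589 and 666 in the unstimulated libraries and 89.5, 211 and 228 with CpG (log2 change -1.86 ± 0.22, adjusted p = 3.49e-07).

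Of 25 growth and trophic factor genes 10 fell and 1 rose, and the median of -1.67 came to -0.19 without CpG replicate 1, in which 16 members were at 0. Astrocyte and fibroblast markers were lowest in the same CpG library (82.3 and 63.0), and their part in the result was not tested. Gas6, a ligand of Mertk and Axl, read 1809, 1587 and 1549 in the unstimulated libraries and 243, 68.6 and 129.7 with CpG (log2 change -3.66 ± 0.31, adjusted p = 1.09e-09), Bmp2 69.9, 119 and 91.5 in the unstimulated libraries and 0, 0 and 3.15 with CpG (log2 change -5.85 ± 0.58, adjusted p = 1.83e-08), and Igf1 3782, 2721 and 3375 in the unstimulated libraries and 437, 595 and 598 with CpG (log2 change -2.60 ± 0.16, adjusted p = 6.96e-12). Of 35 cell cycle genes 5 were higher and 4 lower (median -0.25; 0.01 with quantile scaling), beside 16.5% higher and 19.6% lower of all genes tested. Without CpG replicate 1 the counts of cell cycle genes were 5 and 1. Cytosolic ribosomal protein genes, 32 in all, had a median of 0.18 (-0.06 with quantile scaling). Of them 8 rose and 2 fell (7 and 0 without CpG replicate 1), but 4 were higher and 7 lower with quantile scaling. None of the 13 transcripts encoded in mitochondria was called by limma, and 0 passed an unadjusted p of 0.05.

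The evenness of the CpG libraries differed between genes that rose. Of 2052 risen genes with a mean of at least 100, CpG replicate 1 was at least 2-fold below both other CpG libraries in 54 and at least 2-fold above both in 27. For replicate 2 these counts were 1 and 4, and for replicate 3 they were 7 and 0. Among 1807 fallen genes the counts for replicate 1 were 167 and 38, and among 3932 genes not called they were 193 and 130. Genes with little scatter are called more readily, so these counts depend in part on the call. The 54 held Nos2, Ccl2, Il6, Slc7a2, Il12b, Ch25h, Ccl7, Acod1, Mmp12, Mmp8, Mmp9, Csf3, Ptgs2 and Mmp13. The 27 held Fgl2, a prothrombinase-like protein gene (2982, 593 and 579.8 with CpG), Ndrg1 (1209, 318 and 193), the NF-kB cofactor gene Bcl3 (1254, 487 and 593) and Fcgr4.

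Replicate 1 of the PolyI:C group of the same wild-type cells stood apart in like fashion. It differed from its own replicates with SDs of 0.760 and 0.769, which differed from each other with 0.327. Nos2 read 1865, 7905 and 8066 there, Il6 1152, 5421 and 5504 and Ccl2 2275, 8683 and 8819. Its astrocyte and fibroblast markers summed to 61.1, 633 and 721 and to 197, 1301 and 1275. The LPS libraries were even, with SDs of 0.328 to 0.360 and fibroblast markers between 1112 and 1445. In the CpG libraries labelled CB2-/-, whose astrocyte markers summed to 196 to 289 and fibroblast markers to 163 to 174, Nos2 read 4306, 4597 and 5251 and Il6 1445, 1387 and 1169. The part of the marker levels in the low values of replicate 1 was not tested.

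Interferon-stimulated genes set CpG apart from both other stimuli. Of 38 such genes, 5 rose and 17 fell with CpG, with a median of -0.60, and 2 and 18 without CpG replicate 1. Ifit2, an antiviral gene, read 973, 581 and 682 in the unstimulated libraries and 58.7, 109 and 111 with CpG (log2 change -3.01 ± 0.25, adjusted p = 8.82e-10), and Oas3, which senses double-stranded RNA, 507, 272 and 321 in the unstimulated libraries and 63, 31.9 and 66.3 with CpG (log2 change -2.76 ± 0.20, adjusted p = 1.13e-10). Usp18 (1.26 ± 0.15) and Ifitm3 (0.93 ± 0.18) were the highest of the 5 that rose. Of 16 interferon-inducible GTPases 5 rose and 6 fell, with a median of -0.31 (0.13 with quantile scaling), and the counts were the same without CpG replicate 1. Gbp2 read 53.5, 159 and 150.1 in the unstimulated libraries and 138, 394 and 493 with CpG (log2 change 1.45 ± 0.33, adjusted p = 0.00129) and Gbp9 371, 306 and 387 in the unstimulated libraries and 84.3, 88.9 and 90.5 with CpG (log2 change -1.99 ± 0.13, adjusted p = 2.00e-11). Without unstimulated replicate 1 the change of Gbp2 was 0.95. Tgtp1, which rose (2.93 ± 0.83), changed by -0.04 in the authors' batch-corrected table. Reads may be split within the Gbp, Ifit and Tgtp families. The interferon-stimulated response element spelled out above, which was in 3.36% of the promoter windows of all genes tested, was in 47.1% of 34 windows of the interferon-stimulated genes. The AP-1 motif was in 23.5% of the same 34 windows and the STAT motif in 5.88%, against 5.34 and 1.20% of all, and the NF-kB motif in none of them.

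Against LPS with IFNγ, 4812 genes differed in level (32.8%), 1925 higher with CpG (13.1%) and 2887 lower (19.7%). Against PolyI:C, 4412 differed (30.1%), 1834 higher (12.5%) and 2578 lower (17.6%). Quantile scaling turned these splits to 2737 and 2122, and to 2268 and 1985, and moved the medians of all genes by 0.28 and 0.15. In the deposited scaling 1248 genes were higher with CpG than with both others and 1985 lower than with both. Of the 1248, 549 had risen over unstimulated cells and 163 had fallen. Of the 1985, 822 had fallen and 336 had risen.

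All 38 interferon-stimulated genes and all 16 GTPases were lower with CpG than with LPS and IFNγ, and all were lower than with PolyI:C. Ifit2 read 13064, 13776 and 15763 with LPS and 17598, 19789 and 18669 with PolyI:C (log2 differences, CpG minus the other, -7.29 ± 0.25 and -7.69 ± 0.25). Cxcl10, which rose with CpG from 11.8, 81 and 45.7 to 70.2, 169.9 and 206 (log2 change 1.89 ± 0.41, adjusted p = 0.000692), read 36986, 38479 and 39416 and 14555, 25442 and 26140.4 (-8.14 ± 0.41 and -7.29 ± 0.41). Its change against unstimulated cells was 1.14 without unstimulated replicate 1. Rsad2 (viperin) read 57.5, 138 and 159 with CpG, 16492, 15967 and 18762 with LPS and 23688, 34273 and 34273 with PolyI:C. For these genes no CpG library came near any library of the other stimuli. Of the 23 class I presentation genes, 20 were lower than with LPS and 20 lower than with PolyI:C. All these counts were the same with quantile scaling. Of the 28 genes of glycolysis, glucose uptake and hypoxia, 21 and 18 were lower, but 12 and 7 with quantile scaling.

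Other genes were higher with CpG than with both other stimuli, in 2 different ways. Some had risen with CpG. Igfbp4, a carrier of insulin-like growth factors, read 410, 612 and 579 in the unstimulated libraries and 4282, 2103 and 2358 with CpG, 359, 282 and 401 with LPS and 301, 223 and 247 with PolyI:C. Its log2 differences were 3.01 ± 0.24 and 3.44 ± 0.24. Raver2, an RNA-binding protein gene, read 5.2, 11.3 and 2.11 in the unstimulated libraries and 275, 109 and 121 with CpG, 0, 4.92 and 7.28 with LPS and 4.49, 4.12 and 5.52 with PolyI:C. The CpG libraries of both genes were above every unstimulated, LPS and PolyI:C library shown, and replicate 1 was the highest. Pim2, Adk and Fam213b had likewise risen. Cx3cr1, Tmem119 and Rab3il1 had fallen with CpG, and Lrmp was not called. Cx3cr1, the fractalkine receptor of microglia, read 7929, 7859 and 7869 in the unstimulated libraries and 1654, 3129.9 and 2796 with CpG, against 224, 245 and 262 with LPS and 281, 403 and 382 with PolyI:C (3.32 ± 0.19 and 2.79 ± 0.19). Tmem119, a microglial surface gene, read 180.3, 96.8 and 120.1 with CpG, 3.18, 2.96 and 19.8 with LPS and 4.5, 19.3 and 27.6 with PolyI:C (4.20 ± 0.52 and 3.13 ± 0.52). Lrmp read 333, 272 and 343 in the unstimulated libraries and 324, 169 and 225 with CpG, was not called against unstimulated cells (adjusted p = 0.477), and read 10.3, 7.97 and 11.7 with LPS and 6.65, 38 and 26.2 with PolyI:C. For Cx3cr1 and Tmem119, the CpG libraries thus lay between the unstimulated ones and those of the other stimuli.

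Among lists, 13 of 24 cholesterol genes were higher with CpG than with LPS and 13 than with PolyI:C, although 16 had fallen against unstimulated cells. Ribosomal protein genes were higher in 23 and 26 of 32, and in 30 and 29 with quantile scaling. In neither list did limma call a member lower in these 2 comparisons, and 0 were lower at an unadjusted p under 0.05. Levels of Il10 were higher than with LPS and IFNγ (5.22 ± 0.77), while the difference from PolyI:C was 1.40 ± 0.77 and was not called (adjusted p = 0.185). Those of Tnf were lower than with LPS and IFNγ (-1.87 ± 0.21) and lower than with PolyI:C (-0.80 ± 0.21).

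**Figure D5:**
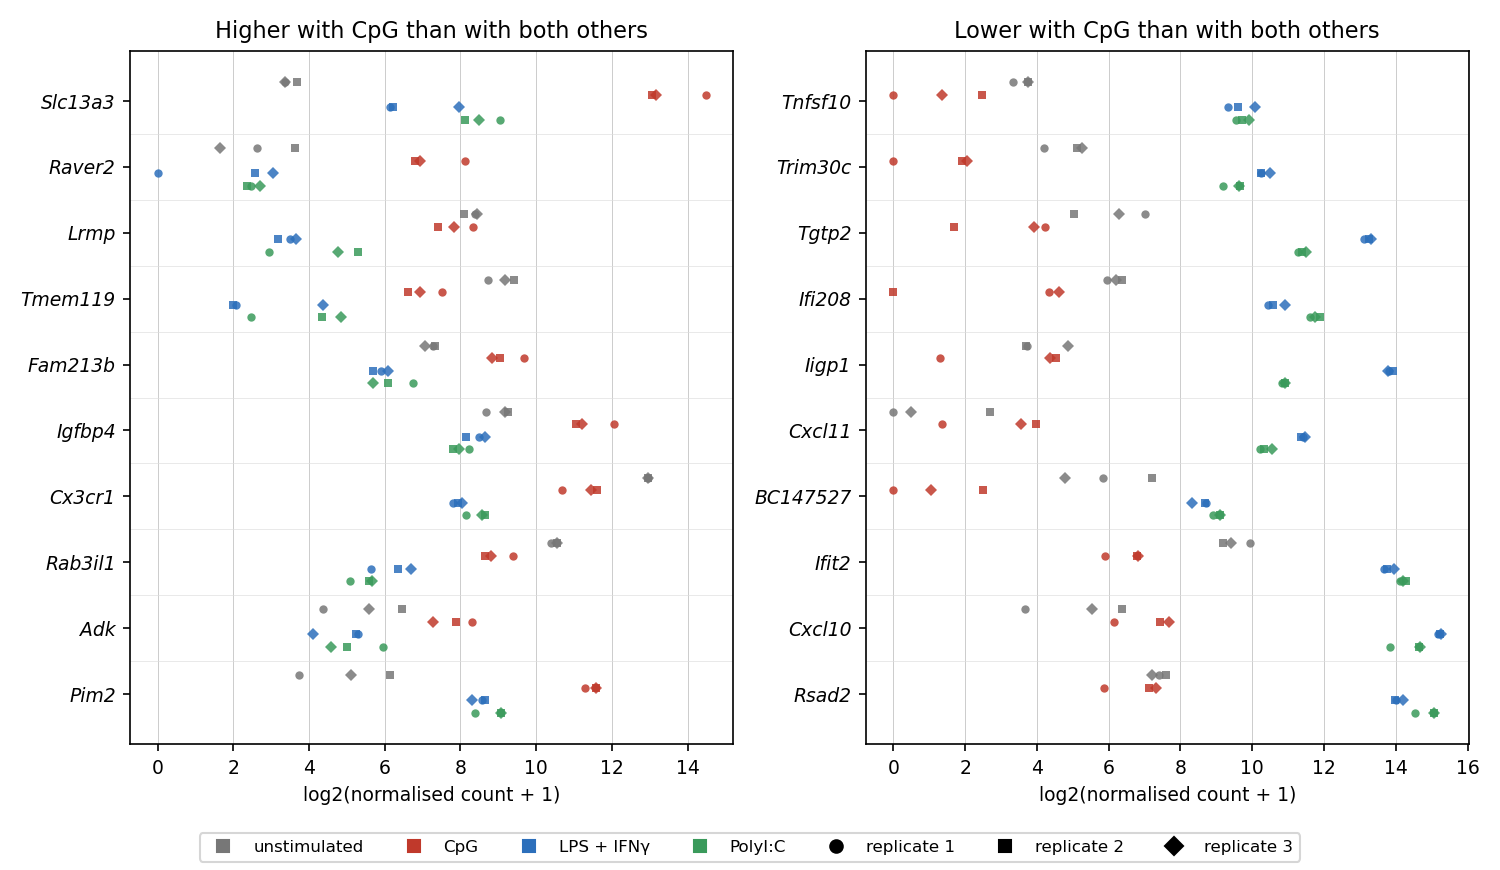
Level of the 10 genes furthest above (left) and the 10 furthest below (right) both other stimuli with CpG, in each wild-type library, as log2(normalised count + 1); grey is unstimulated, red CpG, blue LPS with IFNγ and green PolyI:C. On the right the blue and green marks lie far above the red ones, and on the left Tmem119, Cx3cr1 and Rab3il1 have grey marks above the red.

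The CpG libraries labelled CB2-/- share no library with the wild-type comparison and gave a second measure of the same stimulus. Cnr2 was read in them at 287, 301 and 319.5, and at 317, 411 and 454 in unstimulated cells of that label, and whether these reads lie outside the deleted part was not tested. Against their own unstimulated libraries, 1000 genes were higher (6.82%) and 1092 lower (7.44%). Of the 1000, 87.6% changed in the same direction in wild type and 70.8% were called so, against 16.5% of all genes tested, and 38 were called in the opposite direction. Of the 1092, 92.6% had the same direction and 76.5% were called so, against 19.6%, and 34 were opposite. Over these genes, the median change in wild-type CpG replicates 1, 2 and 3 was 0.99, 1.05 and 1.05 for the higher and -1.24, -1.15 and -1.16 for the lower set. Median changes of the 3 libraries were alike in these genes. The choice of genes was not wholly separate, because limma pooled the scatter over all 27 libraries. Genes uneven in the wild-type libraries were thus chosen less readily, and the like medians and the shares called depend in part on this.

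The change itself differed between the genotypes for 1726 genes (11.8%), 896 with a more positive (6.11%) and 830 with a more negative log2 change (5.66%) in the libraries labelled CB2-/-. Those libraries belong to another number series than the wild-type libraries used here, so genotype and number series cannot be told apart. Tlr9 read 179.8, 155 and 133 and 156, 169 and 167 in the unstimulated and CpG libraries labelled CB2-/-, and was not called there (adjusted p = 0.892). Il1b, not called in wild type, read 2063, 2189.5 and 1773 and 20585, 20620.3 and 19408 (3.33 ± 0.34, adjusted p = 6.58e-08).

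Some calls were lost when 1 library was left out. Dmxl1, which was singled out after its values were seen, read 353, 239 and 292 in the unstimulated libraries and 18936, 52587 and 285 with CpG. Its adjusted p was 0.00889 with all libraries and 0.0502 without CpG replicate 1, and its change ran from 2.996 to 6.76 when 1 library was left out. CpG replicate 3 lay among the unstimulated values. Counting the 273 genes named by rule, 251 kept both their direction and their side of the threshold without CpG replicate 1, 21 were no longer called and 1 was newly called.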

How the data were processed

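RNA of primary microglia was read as 75 bp single ends. The labels describe TruSeq v2 libraries on a HiSeq1500 and SMART-Seq2 low-input libraries on a NextSeq500 without assigning them to samples. The submitters' processing notes name CASAVA 1.8, kallisto and DESeq2 but give none of them a role. The build and annotation behind the counting were not stated in the labels. The main table that the authors deposited holds normalised counts, a signal without negative values. Per library, 45.9 to 67.7% of low values were whole multiples (tolerance 0.01) of the step seen most often, so read counts could not be recovered and count models were not used. A second table that the authors deposited, with batch-corrected scores on a scale like log2, was used as an alternative.

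Groups came from the labels. Replicate numbers follow record order and pair nothing. Of 23995 genes, the 14668 that reached 10 or more in 3 or more libraries entered limma 3.58.1 (R 4.3.3) as log2(value + 1), with 1 mean per group over 27 libraries, a variance trend, two-sided tests and Benjamini-Hochberg adjustment over every gene in the fit. Lists were described by counts and medians beside those of all genes tested (16.5% higher, 19.6% lower, median -0.09), with no set test. Between replicates, chi-square per degree of freedom was 16.9 to 41.9 over genes with at least 20 approximate reads, and no libraries were merged. The fit was tested on simulated data in which no library was made uneven, so that test does not cover the unevenness seen here. Tables and figures were made with Python 3.11.15, pandas 2.3.3 and matplotlib 3.10.9. Positions are those of GENCODE M21 on GRCm38, in which 23950 identifiers were found.

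The members, lists and rules were chosen with earlier results of these data known. Named by rule were the 30 highest and 25 lowest changes (called, groups that do not overlap, the higher group averaging 100 or more, no gene models), up to 4 and 4 called members per list, the 20 most uneven genes, the 10 and 10 furthest from both other stimuli and a panel of 23. Further list members, named for their role or because they were not called, the genes named for the evenness of CpG replicate 1, and Dmxl1 and Arg1 were chosen after their values were seen. Alternatives changed the pseudocount, the filter, the scaling, which libraries entered, their weights, the variance estimate, a minimum fold or the table, or dropped each library in turn. Some genes of the lists are counted but not reported here by name.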

Additional observations from a re-analysis of the deposited data

Results flagged for a closer look

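For 10 genes of the panel, the CpG response of the libraries labelled CB2-/- differed from that of wild type by limma's test of the difference itself (adjusted p under 0.05 over all genes tested). Each value is the log2 response of the libraries labelled CB2-/- minus that of wild type. Tlr9 gave 2.99: it fell in wild type (-2.91) and was not called with that label. Cnr2, the gene targeted in CB2-/- mice, gave 5.36, and read 0, 2.78 and 16.1 in the wild-type and 287, 301 and 319.5 in the other CpG libraries. Il1b gave 3.12, P2ry12 2.84, Csf1r 1.96, Ccl5 1.2 and Cd86 1.05. Lower responses than in wild type were those of Ccl4 at -3.14, Ccl3 at -1.64 and Tnf at -1.29. Unstimulated levels also differed between the labels, as in Ccl4 (178, 101 and 108 in wild type, 477, 472 and 466 with the label CB2-/-) and P2ry12 (301, 369 and 385 and 59.7, 61.3 and 54.1). How many of all genes tested differ so was not counted. The unstimulated wild-type libraries of the other number series were not part of this comparison. Genotype and number series are the same split for stimulated cells and cannot be told apart.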

How the results depend on the processing

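Counts of called genes moved by less than 1.5 times under most settings. For the CpG response, the 6 compared libraries alone gave 1318 higher and 1355 lower, a threshold of 2-fold 407 and 651, and those 6 without CpG replicate 1, a setting added after seeing the data, 1270 and 1438. For the difference between genotypes, library weights gave 1508 and 1459. Leaving out 1 library at a time, counts ran from 2045 to 2328 higher and 2416 to 3083 lower for the CpG response, from 1584 to 1938 and 2432 to 3244 against LPS, from 1581 to 1848 and 2203 to 2774 against PolyI:C, and from 670 to 1227 and 626 to 940 for the difference between genotypes. The cause was not tested.

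Directions reversed in few named genes: H2-Ab1 to -0.12 (all 6 unstimulated libraries), Il1b to -0.060 and Unc93b1 to -0.17 (quantile scaling) and Tgtp1 to -0.039 (batch-corrected table). Leaving out 1 library, Il1b ran from -0.078 to 0.79. In the difference between genotypes, Il1a turned to -0.063 (library weights), Il6 to 0.52 (pseudocount of 5) and 0.92, Nos2 to 0.39 and Ptgs2 to 0.53 (batch-corrected table). There, leaving out 1 library gave -1.02 to 1.42 for Il1a and -0.83 to 0.36 for Ptgs2. Of 273 named genes 68 lost their call with 6 libraries only, Cxcl10, Il1a and Nos2 among them (adjusted p = 0.157, 0.141 and 0.0726), 106 at a 2-fold threshold and 34 against all 6 unstimulated libraries. The 20 genes furthest from both other stimuli kept call and direction under each setting run for those contrasts. No paired analysis was possible because replicate numbers follow record order and the labels pair no samples. CpG replicates 1 and 2 (about 4.76 and 2.5 M reads) and unstimulated replicate 2 (about 3.96 M) were shallow, so low levels there are coarse.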
